A study of Mus musculus with 3 samples.

Results

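Translation initiation factors are the proteins that bring the small ribosomal subunit, the initiator tRNA and an mRNA together before a protein is made. Their genes were followed here between late carcinomas and adenomas of the mouse mammary gland. They were taken as all genes whose symbol begins with Eif and a digit in the annotation of the array. This rule found 46 of 15056 named genes, represented by 77 of 38976 array rows, and it did not use the measured values. All 46 were measured on all 3 arrays, and no filter on low values was applied. Of 56 protein-coding RefSeq genes with such a symbol, 10 had no row named for them (Eif1, Eif2b3, Eif2s1, Eif3d, Eif3f, Eif3g, Eif3j2, Eif4a3l1, Eif4e1b and Eif4g1) and were not analysed here.

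As background, initiation runs in steps. The GTPase eIF2 carries the initiator tRNA to the small subunit, where eIF1, eIF1A and the large complex eIF3 prepare it to scan the mRNA. The cap of the mRNA is bound by eIF4E, which joins the scaffold eIF4G and the helicase eIF4A. The best known controls are these: kinases that phosphorylate eIF2 block its exchange factor eIF2B and so slow initiation in stressed cells, and eIF4E-binding proteins hold eIF4E until mTORC1 phosphorylates them. Both controls have been studied widely in breast tumours.

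The late carcinomas were 18 week outgrowths and the adenomas 5 week outgrowths. Both grew in syngeneic hosts from single hyperplasias, early lesions of donor mice at puberty that were MMTV-PyMT x B-actin-GFP. The MMTV promoter drives the polyoma middle T antigen in mammary epithelium, so donor cells of either stage carried that oncogene and the GFP reporter, while the host tissue around them need not have. The sources used here give no strain, host age or pooling of animals. Each array compared total RNA of a late carcinoma (Cy3) with that of an adenoma (Cy5), always with these dyes, so a dye effect could not be separated from stage. Separate animals are not named for the 3 arrays, so the spread that p-values measure may be technical.

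Every value below is a log2 ratio read as adenoma over late carcinoma, so a value below 0 is likely higher in late carcinomas and a value above 0 likely higher in adenomas. The basis is the order and dyes of the channels in the labels and the usual convention. The sources state no numerator and no log base, and all directions would turn together if the ratio had been formed the other way. The arrays had medians of -0.012, -0.025 and -0.033 over all rows, and their number limits the precision. Ratios carry no expression level, so the labelled tissue could not be checked by the presence of its markers. Total RNA of whole outgrowths was used, in which fewer cells of a type and less RNA per cell cannot be told apart. In short marker lists, 1 of 9 mammary epithelial genes passed below 0 and 3 above 0 (median 0.12), and 0 of 7 adipocyte genes passed below 0 and 5 above 0 (median 0.53). The counts were 1 and 2 of 6 macrophage genes (median 0.19), 1 and 1 of 4 T cell genes (median -0.26) and 0 and 1 of 6 endothelial genes (median 0.037). They were 1 and 0 of 6 fibroblast genes (median -0.25) and 0 and 1 of 5 skeletal muscle genes (median 0.044). Among all units tested, 9.21% passed below 0 and 15.9% above 0, with a median of -0.019. The part of these cell types in the results on initiation factors was not tested.

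The initiation factor genes did not move as a block. By limma's moderated test of the mean ratio against 0, with Benjamini-Hochberg adjustment over 31058 genes and unnamed probes, 4 of 46 passed an adjusted p of 0.05 below 0 and 4 above 0. Among all units tested, 9.21% passed below 0 and 15.9% above 0, together 25.1%, against 17.4% of the initiation factor genes. On the late carcinoma side were Eif2d, Eif2b2, Eif4a3 and Eif4enif1. On the adenoma side were Eif5a2, Eif2ak4, Eif3j1 and Eif2b4. The median of the 46 means was -0.057, against -0.019 over all units, and the means ran from -0.66 to 0.81. Without array 1 the median of the 46 was -0.011. Signs were the same on all arrays for 26 of 46 genes, 15 below 0 and 11 above 0, or 56.5%, against 60.6% of all units. The counts rest on array 3: without it, 0 of 46 passed in limma, and 1 of all 31058 units passed (0.00322%). The lowest limma adjusted p of the 46 was then 0.114. The 8 means kept their signs without array 3. In the order named above they were -0.64, -0.46, -0.42, -0.36, 0.82, 0.64, 0.53 and 0.46. In that limma fit 10 of 46 had an unadjusted p under 0.05, against 7758 of 31058 units. Without array 1 the counts were 5 below 0 and 4 above 0 (9.14% and 14.4% of all units), and without array 2 they were 5 and 3 (7.63% and 14.9%). As another zero, each array was also centred on its median over 979 smell receptor genes, here called receptor centring.

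**Figure D1:**
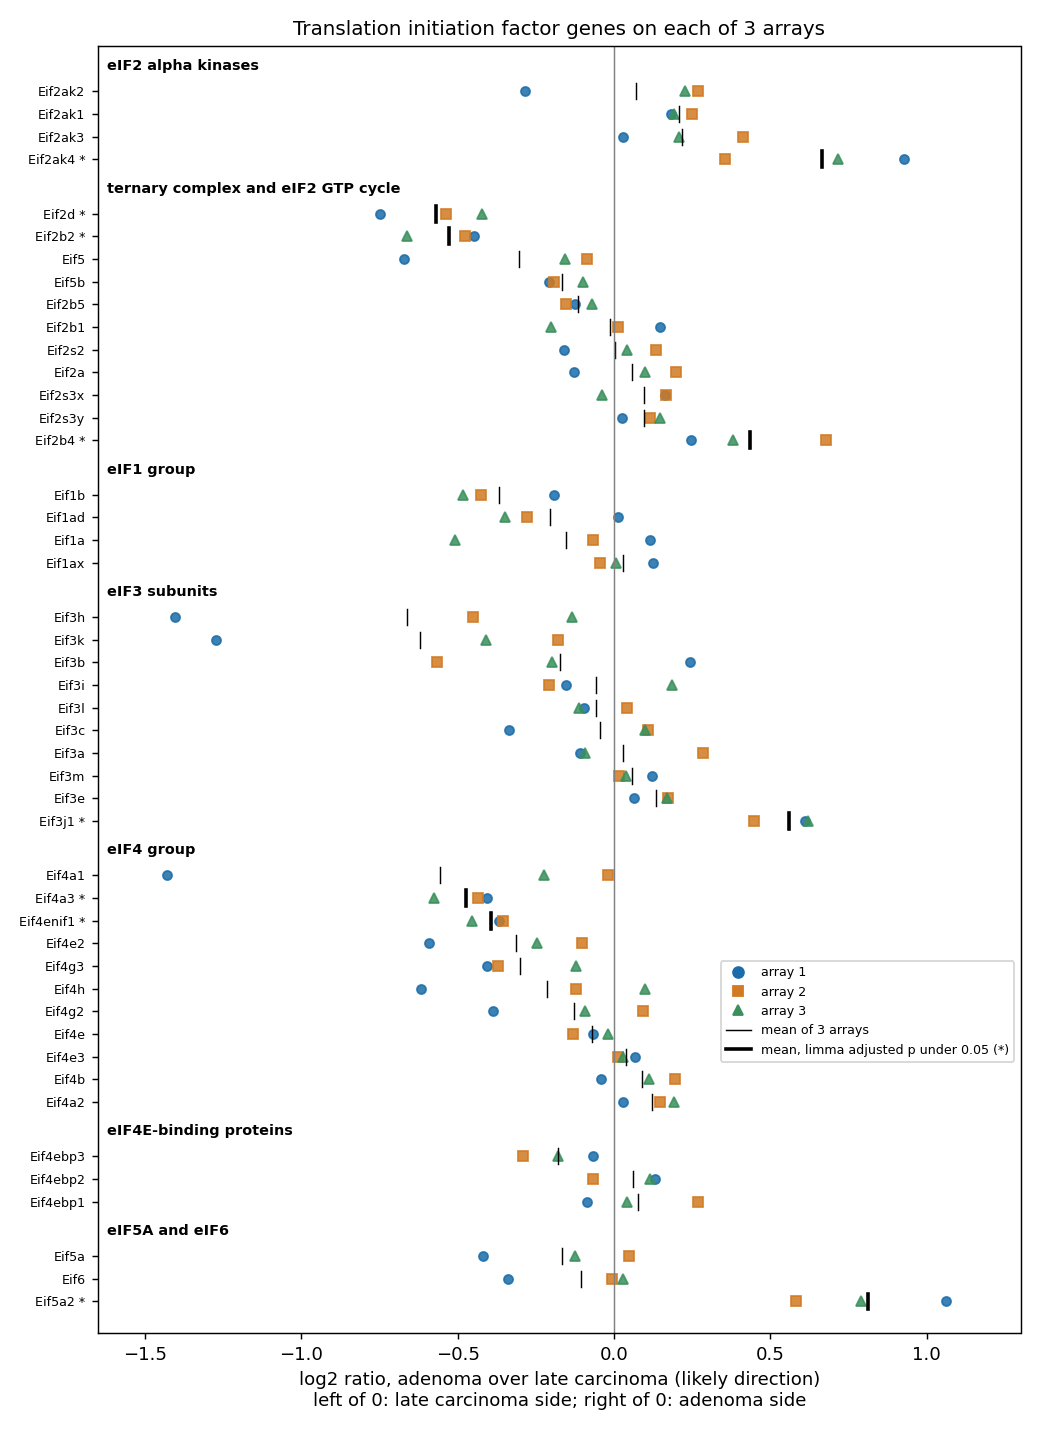
Log2 ratio (x axis) of the 46 initiation factor genes (rows, grouped by role) on array 1 (circles), array 2 (squares) and array 3 (triangles), with a bar at the mean of the 3 arrays. The 8 genes with thick bars and an asterisk passed a limma adjusted p of 0.05, 4 to the left of 0 on the late carcinoma side and 4 to the right on the adenoma side.

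The kinases that phosphorylate eIF2 each sense another stress. All 4 of their genes had means above 0 (median 0.21), as had 14794 of all 31058 units. Only 1 of the 4 passed, or 25%, against 25.1% of all units. Eif2ak4, which encodes the amino acid sensor GCN2, had log2 ratios of 0.93, 0.36 and 0.72 on arrays 1, 2 and 3. All arrays lay on the adenoma side, with a mean of 0.67 ± 0.29 (SD, n = 3), a 1.59-fold ratio, and a limma adjusted p of 0.0181. Eif2ak3, the gene of the endoplasmic reticulum sensor PERK, had 0.029, 0.41 and 0.21 (adjusted p = 0.212 in limma). Eif2ak1, which encodes the haem-regulated kinase HRI, had 0.18, 0.25 and 0.19 (limma adjusted p = 0.170). The gene of the double-stranded RNA sensor PKR, Eif2ak2, had -0.28, 0.27 and 0.23, so its arrays fell on both sides of 0. The call of Eif2ak4 was lost with receptor centring (0.32, limma adjusted p = 0.0592), and the means of the other kinases turned below 0 there.

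Calls on both sides of 0 fell on subunits of eIF2B, the factor that reloads eIF2 with GTP and is the target of the phosphorylated form. Eif2b2, the gene of its beta subunit, had log2 ratios of -0.45, -0.48 and -0.66 on arrays 1, 2 and 3. All were on the late carcinoma side, with a mean of -0.53 ± 0.12 (SD, n = 3), a 1.44-fold ratio, and a limma adjusted p of 0.0176. Eif2b4, the gene of the delta subunit, had 0.25, 0.68 and 0.38. These lay on the adenoma side, with a mean of 0.44 ± 0.22, a 1.35-fold ratio and a limma adjusted p of 0.0433. Eif2b4 lay above Eif2b2 by 0.69, 1.16 and 1.04 on the 3 arrays, a mean difference of 0.96 ± 0.24 (SD, n = 3). This difference was picked for its size and was not tested. The catalytic epsilon subunit gene Eif2b5 had -0.12 ± 0.043 and the alpha subunit gene Eif2b1 -0.014 ± 0.17, and neither passed. Each of Eif2b2 and Eif2b4 was read by 1 probe. The call of Eif2b4 was lost without array 2 (0.31, limma adjusted p = 0.170) and with receptor centring (0.085, limma adjusted p = 0.598).

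The remaining genes of the eIF2 cycle held 1 call. With the eIF2B genes, 27.3% of the 11 measured genes of this cycle passed, against 25.1% of all units. Eif2d encodes a factor that can deliver tRNA to the ribosome without GTP and helps to recycle ribosomes. It had log2 ratios of -0.75, -0.54 and -0.42. With every array on the late carcinoma side, its mean was -0.57 ± 0.17 (SD, n = 3), a 1.48-fold ratio, and its limma adjusted p 0.0169. Eif5, whose protein triggers GTP hydrolysis by eIF2, had -0.67, -0.088 and -0.16 (limma adjusted p = 0.157), and only array 1 lay far from 0. Eif5b, the gene of the GTPase that joins the large subunit, had -0.17 ± 0.058, with probes on both sides of 0 given below. Of the eIF2 subunits, the beta subunit gene Eif2s2 had 0.0043 ± 0.15, a mean of opposed probes given below. The gamma subunit copies on X and Y, Eif2s3x and Eif2s3y, each had 0.096, with SD 0.12 and 0.064. These copies are close in sequence, so their probes may share transcripts. Eif2a encodes a separate factor that also binds initiator tRNA, not the alpha subunit of eIF2, and had 0.057 ± 0.17.

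The upstream sequences of 4 of the 8 genes that passed are shown, the opposed eIF2B pair and the genes with the lowest and the highest mean among the 8. Each is the 250 bases before the annotated start, from RefSeq on build GRCm38.p6, 5′ to 3′ on the strand of the gene. The windows are chr12:85219231-85219480 on the plus strand for Eif2b2, chr5:31193140-31193389 on the minus strand for Eif2b4, chr1:131152957-131153206 on the plus strand for Eif2d and chr3:28781027-28781276 on the plus strand for Eif5a2. Capitals mark the GC box GGGCGG, the ETS motif CCGGAAG and the E-box CACGTG, read on both strands, and these motifs did not overlap each other in these windows.
Eif2b2: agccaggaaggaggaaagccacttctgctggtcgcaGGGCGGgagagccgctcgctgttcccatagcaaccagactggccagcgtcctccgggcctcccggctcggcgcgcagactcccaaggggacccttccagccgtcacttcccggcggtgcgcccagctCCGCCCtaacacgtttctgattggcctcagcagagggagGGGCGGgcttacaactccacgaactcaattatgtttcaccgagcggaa
Eif2b4: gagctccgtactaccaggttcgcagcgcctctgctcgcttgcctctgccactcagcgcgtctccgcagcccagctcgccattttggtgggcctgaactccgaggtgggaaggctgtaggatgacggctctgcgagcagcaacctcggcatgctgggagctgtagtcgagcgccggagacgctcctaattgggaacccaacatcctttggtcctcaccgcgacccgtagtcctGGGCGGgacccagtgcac
Eif2d: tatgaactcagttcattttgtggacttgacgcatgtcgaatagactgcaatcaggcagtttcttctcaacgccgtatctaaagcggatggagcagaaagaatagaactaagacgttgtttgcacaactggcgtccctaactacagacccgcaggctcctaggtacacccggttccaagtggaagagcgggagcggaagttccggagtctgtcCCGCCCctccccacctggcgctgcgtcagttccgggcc
Eif5a2: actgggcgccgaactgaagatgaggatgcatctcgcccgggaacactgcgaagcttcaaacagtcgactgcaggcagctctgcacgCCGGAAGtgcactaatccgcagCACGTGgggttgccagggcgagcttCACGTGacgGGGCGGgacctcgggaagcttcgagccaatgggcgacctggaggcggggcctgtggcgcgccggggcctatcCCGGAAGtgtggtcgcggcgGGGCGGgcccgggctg

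Of the 46 genes, 37 had an upstream sequence in the RefSeq table, and where a gene had several starts the most upstream was taken. The GC box lay in 27 of 37 (73.0%), against 33.0% of 27025 genes of the table, and in all 8 genes that passed, on either side of 0. The ETS motif lay in 8 of 37 (21.6%, against 7.07% of all genes). The E-box, a letter pattern that MYC proteins can bind, lay in 5 of 37 (13.5%, against 6.04%). Among the 8, the ETS motif and the E-box were found in Eif5a2 alone, with 2 matches each. The windows had a median GC content of 61.2%, against 52.0% over all genes, and a letter match is a description, not a binding site.

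Genes of eIF1 and eIF1A, small factors that keep the scanning ribosome open and fix the start codon, held no call among 4. Of all units, 25.1% passed. Eif1b, a close relative of Eif1, was nearest, with log2 ratios of -0.19, -0.43 and -0.48 and a limma adjusted p of 0.0537. All arrays lay on the late carcinoma side. Eif1b passed in limma without array 1 (-0.45, adjusted p = 0.0339) and when named genes alone were tested (adjusted p = 0.0431). With array weights (adjusted p = 0.0126) and receptor centring (adjusted p = 0.00411) it passed too. It did not pass without array 2 (-0.34, limma adjusted p = 0.156), without array 3 (-0.31, adjusted p = 0.291) or with median centring (-0.34, adjusted p = 0.0623). Eif1ad had -0.20 ± 0.19 and Eif1a -0.15 ± 0.32. The X-linked eIF1A gene Eif1ax had 0.028 ± 0.086.

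The eIF3 subunits, which form the scaffold on the small ribosomal subunit, held 0 calls below 0 and 1 above 0 among 10 (median -0.050, which turned to 0.0084 without array 1). That was 10%, against 25.1% of all units. Eif3j1 encodes the loosely bound subunit eIF3j, which sits near the mRNA channel and the decoding site. It had log2 ratios of 0.61, 0.45 and 0.62, all on the adenoma side, with a mean of 0.56 ± 0.097 (SD, n = 3), a 1.47-fold ratio, and a limma adjusted p of 0.0150. The copy Eif3j2 is nearly identical to it, so transcripts of either gene may be read. With the median of its 5 probes in place of their mean the call was lost (0.38, limma adjusted p = 0.0700), and likewise with receptor centring (0.21, adjusted p = 0.121).

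The lowest eIF3 means did not pass, and their arrays differed. Eif3h had -1.40, -0.45 and -0.14 (limma adjusted p = 0.0790), and Eif3k had -1.27, -0.18 and -0.41 (limma adjusted p = 0.0710). Every array of both genes was on the late carcinoma side, and array 1 lay far below the others. The gene of the largest core subunit, Eif3a, had -0.11, 0.29 and -0.093, with a 95% interval of its mean from -0.26 to 0.32. Eif3e, known in mouse as a site of integration of mammary tumour virus, had 0.065, 0.17 and 0.17, with an interval from -0.11 to 0.38. The other 5 subunit genes, Eif3b, Eif3c, Eif3i, Eif3l and Eif3m, had means from -0.17 to 0.058.

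In the eIF4 group, which recruits the mRNA through its cap, 2 of 11 passed below 0 and 0 above 0 (median -0.21). These made 18.2% of the group, against 9.21% of all units below 0 and 25.1% on either side. The median was -0.074 without array 1 and -0.35 without array 3. Eif4a3, the gene of a helicase that anchors the exon junction complex and not of an initiation helicase proper, had log2 ratios of -0.41, -0.44 and -0.58. Its mean was -0.47 ± 0.091 (SD, n = 3), a 1.39-fold ratio, with a limma adjusted p of 0.0219. Eif4enif1 encodes 4E-T, which carries eIF4E into the nucleus and into P-bodies. It had -0.37, -0.36 and -0.45, with a mean of -0.39 ± 0.053, a 1.31-fold ratio and a limma adjusted p of 0.0336. In both genes every array lay on the late carcinoma side and the arrays differed little, and Eif4enif1 lost its call without array 2 (-0.41, adjusted p = 0.0773).

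The helicase gene Eif4a1 had the lowest single value of the set, with -1.43, -0.020 and -0.22 on arrays 1, 2 and 3 (limma adjusted p = 0.161). Array 1 alone lay far from 0, the mean was -0.56 ± 0.76 (SD, n = 3), and the gene did not pass. Without array 1 the mean was -0.12 (limma adjusted p = 0.511), while without array 2 the gene passed (-0.83, limma adjusted p = 0.0360). Eif4e, the cap-binding protein gene and a known oncogene when in excess, had -0.068, -0.13 and -0.018. Its mean of -0.072 ± 0.056 had a 95% interval from -0.31 to 0.17. The relatives Eif4e2 and Eif4e3 had -0.31 ± 0.25 and 0.037 ± 0.028. Of scaffold genes, Eif4g3 had -0.30 ± 0.15 and Eif4g2, whose protein lacks the eIF4E site, -0.13 ± 0.24. The helicase cofactor genes Eif4b and Eif4h had 0.088 ± 0.12 and -0.21 ± 0.37, and Eif4a2 had 0.12 ± 0.084. None of these passed.

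None of the 3 eIF4E-binding protein genes passed, against 25.1% of all units. Eif4ebp1, the best known of them as a target of mTORC1, had log2 ratios of -0.085, 0.27 and 0.043, on both sides of 0, with a 95% interval of its mean from -0.20 to 0.35. Eif4ebp3 had the largest mean of the 3 in size, with -0.068, -0.29 and -0.18, all on the late carcinoma side (limma adjusted p = 0.250). Eif4ebp2 had 0.060 ± 0.11. These are RNA ratios and say nothing of phosphorylation.

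Eif5a2 had the highest mean of the 46 genes. Its protein is a relative of eIF5A, which carries the modified lysine hypusine and helps ribosomes through difficult peptide bonds, and the human gene is amplified in several cancers. It had log2 ratios of 1.06, 0.58 and 0.79, all on the adenoma side. The mean was 0.81 ± 0.24 (SD, n = 3), a 1.75-fold ratio, with a limma adjusted p of 0.0118, and Eif5a2 still passed with receptor centring (0.46, adjusted p = 0.0140). The widely expressed Eif5a had -0.42, 0.048 and -0.12 and did not pass (adjusted p = 0.361). As Eif5a2 had the highest mean of the 46, its mean had to lie above that of Eif5a. Eif5a2 lay above Eif5a on all 3 arrays, by 0.98 ± 0.48 (SD, n = 3), a difference not tested. Eif6, which keeps the ribosomal subunits apart, had -0.34, -0.0080 and 0.028, with only array 1 far from 0.

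Calls were also counted by the number of probes of a gene. There were 23 genes with 1 probe and 23 with more, and of the 8 that passed 7 had 1 probe and 1, Eif3j1, had 5. Among all named genes, 30.2% with 1 probe and 15.6% with more passed. In 13 of the 23 genes with several probes the probe means fell on both sides of 0, or 56.5%, against 52.9% of 5138 such genes in all. The median range between probes of 1 gene was 0.33, against 0.40 over all such genes. When every row was tested on its own in limma, 8 of 77 rows passed below 0 and 9 above 0, against 10.0% and 16.0% of 38975 rows.

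Several near-zero means hid opposed probes. The lowest of the 4 probes of Eif4a2 had -1.16, -0.18 and -0.68, and the highest had 1.11, 0.82 and 1.41. Both passed in limma, with means of -0.67 and 1.11, while the other pair had -0.0030 and 0.051. Only Eif4a2, of the 23 (4.35%), had probes past the threshold on both sides, against 4.19% of all genes with several probes. Opposed probes also lay more than 1 apart in Eif4a2 alone of the 23, against 524 of all 5138 such genes. Of the Eif4e probes, 1 passed at -0.45 while the others had 0.066 and 0.17. Of the Eif5a probes, 1 passed at -0.76 while the others had 0.044 and 0.22. Among the Eif5b probes, 1 passed at -0.44 (limma adjusted p = 0.0498), while the others had -0.17 and 0.105. The probe pairs of Eif2s2 (-0.42 and 0.43), Eif4e3 (-0.33 and 0.40) and Eif2ak1 (-0.038 and 0.45) were opposed too. In each pair only the higher probe passed. The probes of Eif3j1 had means of 0.087, 0.16, 0.69, 0.78 and 1.07, all above 0. The pair of Eif4ebp1 lay close together, at 0.071 and 0.081. The sources used here do not say which transcript form each probe reads.

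**Figure D2:**
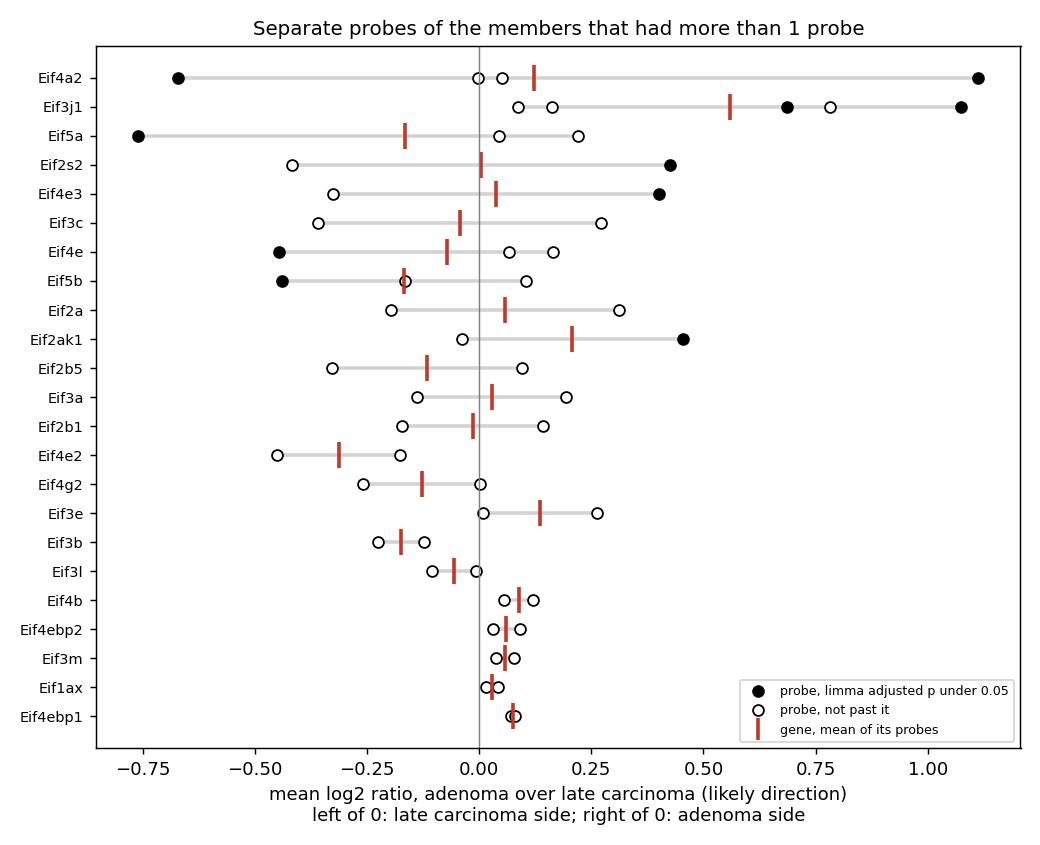
Mean log2 ratio over 3 arrays (x axis) of each probe of the 23 initiation factor genes that had more than 1 probe (rows), with filled points past a limma adjusted p of 0.05 and a red bar at the mean of the gene. Eif4a2 at the top spans -0.67 to 1.11, while the Eif4ebp1 probes at the bottom nearly coincide.

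Array 1 gave lower ratios for these genes than the other arrays. Their medians were -0.10, 0.0022 and -0.028 on arrays 1, 2 and 3. Array 1 had the lowest value in 25 of 46 genes (54.3%), against 31.8% of all units. Eif4a1, Eif3h and Eif3k, below -1.2 on array 1, lay between -0.45 and -0.020 on the others. The 73 cytosolic ribosomal protein genes, with medians of -0.88, -0.0070 and -0.088, were low on the same array. Across the 46 genes, array 2 correlated with array 1 at a Pearson's r of 0.53 and with array 3 at 0.79, against 0.61 and 0.71 over all units. For array 1 with array 3, r was 0.61, against 0.74. These r are across genes, which are not independent replicates, and carry no p.

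**Figure D3:**
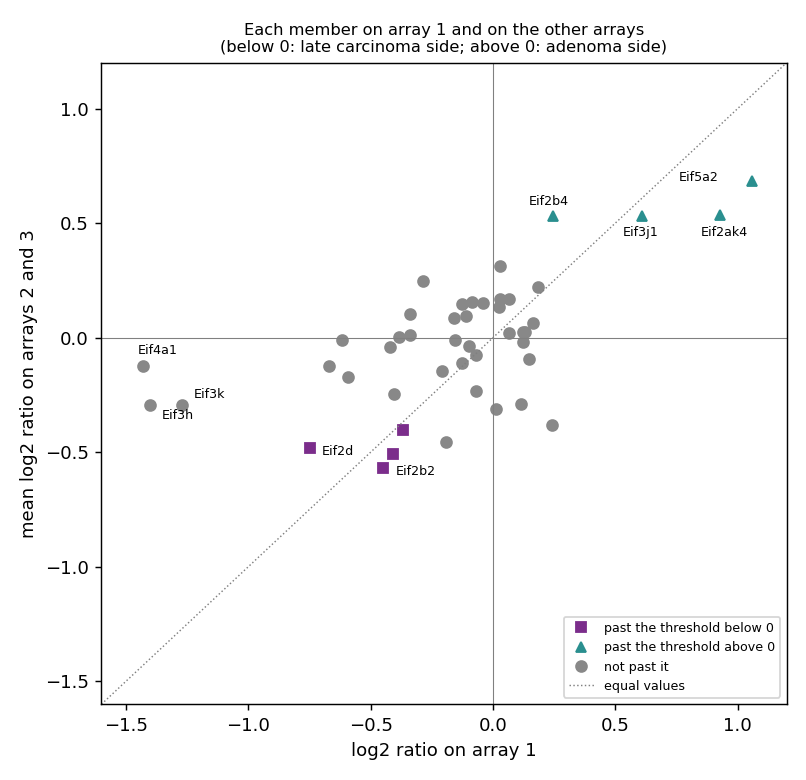
Log2 ratio on array 1 (x axis) against the mean log2 ratio on arrays 2 and 3 (y axis) for each of the 46 genes, with squares for the 4 that passed below 0, triangles for the 4 that passed above 0 and circles for the rest. Eif4a1, Eif3h and Eif3k lie at the far left, away from the dotted line of equal values.

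How many of these genes passed changed with receptor centring. Centring each array on its median over all rows left the counts at 4 below 0 and 4 above 0. Smell receptor genes, which are not known for a role in the mammary gland, had a median of 0.34 on the same arrays. Of these 979 genes 46.2% passed, 26 below 0 and 426 above 0. Their means ran from -0.88 to 1.33, and all 46 initiation factor genes lie within that range. Receptor centring moved the values down by 0.408, 0.277 and 0.365 on arrays 1, 2 and 3. Then 31 of 46 initiation factor genes passed below 0 and 1 above 0, against 54.3% and 7.33% of all units in the same fit. The means of 16 genes turned below 0, and 4 stayed above 0: Eif2b4, Eif3j1, Eif2ak4 and Eif5a2. The 4 genes on the late carcinoma side passed with either zero. As this centring only moves values further down, they could hardly have failed, so it is no check of their calls.

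**Figure D4:**
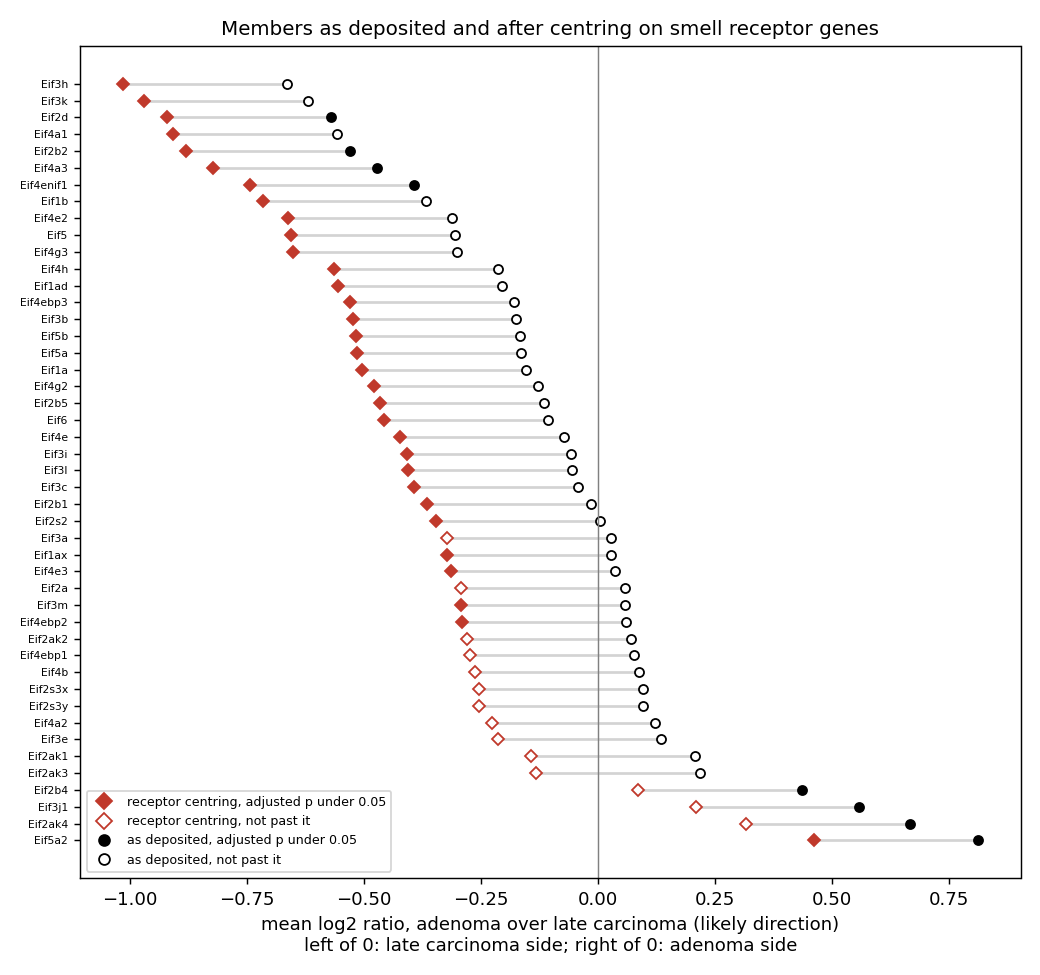
Mean log2 ratio (x axis) of the 46 genes after centring on smell receptor genes (red diamonds) and as deposited (black circles), filled where the limma adjusted p was under 0.05. With centring 31 genes passed on the late carcinoma side and Eif5a2 alone on the adenoma side.

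Genes that work beside the initiation factors were counted in 5 lists. Of 18 measured partners and modulators of the cap complex, 1 passed below 0 and 4 above 0. Paip2, which removes poly(A)-binding protein from mRNA, had a mean log2 ratio of 0.83 ± 0.19 (limma adjusted p = 0.0117). Mcts2, a retrogene relative of Mcts1, whose protein helps ribosomes to start again after a short reading frame, had 0.68 ± 0.095 (limma adjusted p = 0.0118). The poly(A)-binding protein gene Pabpc1, the target of Paip2, lay on the late carcinoma side with -0.64 ± 0.24 (limma adjusted p = 0.0167).

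Of 13 elongation and termination factor genes, 2 passed below 0 and 2 above 0, among them the release factor genes Etf1 (-0.50 ± 0.11) and Gspt2 (0.44 ± 0.24). Eef1e1 (0.51 ± 0.28), despite its symbol, encodes a scaffold protein of the tRNA synthetase complex. Of 15 mTORC1 pathway genes, 2 passed below 0 and 1 above 0. The gene of the mTORC1 inhibitor PRAS40, Akt1s1, and that of its subunit raptor, Rptor, had -0.53 ± 0.012 and -0.35 ± 0.081, and the kinase gene Akt1 had 0.37 ± 0.071. Of 15 genes of the integrated stress response, the programme that phosphorylated eIF2 sets off, 2 passed below 0 and 0 above 0. These were the transcription factor genes Cebpb (-0.63 ± 0.17) and Ddit3 (-0.41 ± 0.040), which encodes CHOP, while the kinase gene Eif2ak4 lay on the other side of 0. Of 16 genes in the aminoacyl-tRNA synthetase list, Vars passed below 0 (-0.65 ± 0.24) and Tars above 0 (0.93 ± 0.36). That list also holds Aimp1 and Aimp2, genes of scaffold proteins of the synthetase complex. The share past the threshold was 12.5% to 30.8% in these lists, with medians from -0.15 to 0.032, against 25.2% of 15055 named genes with a median of -0.027.

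**Figure D5:**
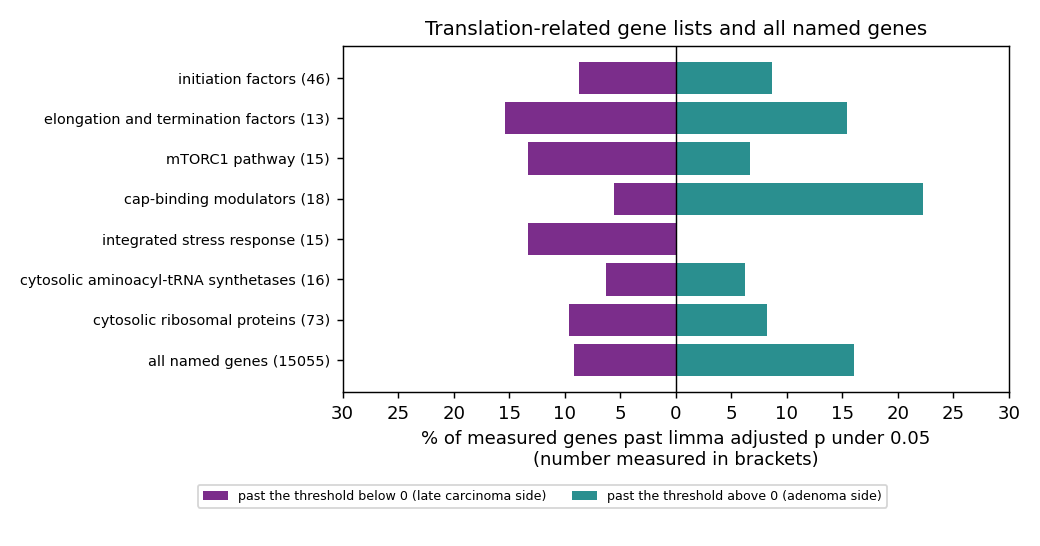
Share of measured genes in % (x axis) past a limma adjusted p of 0.05 below 0 (left, late carcinoma side) and above 0 (right, adenoma side), for the initiation factor genes, 5 lists of related genes, cytosolic ribosomal protein genes and all named genes. The initiation factor bars have the same length on both sides, 4 of 46 genes each.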

How the data were processed

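The authors deposited a table of log ratios for 3 arrays of 2 channels, whose values were taken as log2 ratios that the authors had centred near 0 before deposit, a reading from the values. The sources used here record no scanner, background correction, normalization or filter on spots. In the annotation given for the platform, 22973 of 38976 rows had 1 gene symbol, 16003 had none and 0 had several. Gene identifiers of all 22973 were found in RefSeq's gene table of GRCm38.p6, and 0 symbols differed. For each array the rows of 1 gene were averaged, and rows without a symbol were kept as single probes. The 31058 units with 3 values entered a limma 3.58.1 fit (R 4.3.3) of the mean ratio against 0, with eBayes (4.60 prior degrees of freedom), a two-sided test and Benjamini-Hochberg adjustment over all units. The fit was also run on simulated ratios with few changed units and no shared dye or array effect. That run is no check of the calls given here. The genes, lists and alternatives were chosen with earlier results of these data known. Named with values on every array are genes past the threshold, the largest mean of each role and a panel (Eif4e, Eif4ebp1, Eif4a1, Eif2ak3, Eif2ak4, Eif3a, Eif3e, Eif5a, Eif6; Eif4g1 and Eif2s1 were not analysed here). Of related lists, up to 3 genes past the threshold with the smallest p are named. Eif2ak1, Eif2ak2, Eif3k and Eif5 were given in full, and the separate probes chosen, after their values were seen. Alternatives were other centrings, scaling, other ways to join probes, a robust variance model, array weights, named genes alone and leaving out each array. Promoters and figures were handled with Python 3.11.15 and matplotlib 3.10.9.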

Additional observations from a re-analysis of the deposited data

How the results depend on the processing

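Each array holds both stages, so the test of its ratio against 0 already pairs them within an array. All arrays form 1 group, and no further pairing was possible. The cause of the changes below was not tested. With receptor centring, 31 genes passed below 0 and 1 above 0, and the median of the 46 became -0.41. The medians by role then were -0.36 (eIF2 cycle), -0.14 (eIF2 kinases), -0.53 (eIF1), -0.40 (eIF3), -0.56 (eIF4), -0.29 (eIF4E-binding proteins) and -0.46 (eIF5A and eIF6), and those of related lists -0.49 (elongation), -0.35 (mTORC1), -0.32 (cap modulators), -0.35 (stress response) and -0.50 (synthetases). Eif3a (-0.32), Eif4ebp1 (-0.27), Eif3e (-0.21) and Eif2ak3 (-0.13) turned below 0. With the first probe, medians were -0.20 (eIF2 cycle), 0.22 (eIF5A and eIF6), -0.19 (elongation), -0.061 (mTORC1) and -0.075 (cap modulators), and Eif5a (0.22) and Eif4e (0.066) turned. With the median of probes, the cap modulators had -0.020 and the stress response -0.065, and Eif5a (0.0097) and Eif4e (0.021) turned. Rows tested singly gave 8 and 9 calls, a median of 0.0087 over the rows, and -0.17 (eIF2 cycle), 0.023 (eIF3), -0.25 (elongation), -0.031 (mTORC1), -0.087 (cap modulators) and -0.065 (stress response). Array weights gave -0.097 (eIF2 cycle), -0.077 (elongation), -0.031 (mTORC1) and -0.010 for Eif3a, and median centring gave 0.023 (mTORC1).

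Leaving out each array gave 0 to 5 calls below 0 and 0 to 4 above 0. Medians then ran from -0.094 to -0.014 (eIF2 cycle), -0.021 to 0.033 (eIF4E-binding proteins), -0.24 to -0.032 (elongation), -0.039 to -0.0025 (mTORC1) 0.0078 to 0.11 (cap modulators), -0.071 to 0.0084 (eIF3), -0.35 to -0.074 (eIF4), -0.30 to -0.055 (eIF1), -0.056 to -0.013 (stress response) and -0.079 to -0.011 (all 46), and means from -0.17 to 0.010 (Eif6), -0.93 to -0.29 (Eif3h), -0.83 to -0.12 (Eif4a1), -0.27 to -0.039 (Eif5a), -0.10 to 0.096 (Eif3a) and -0.021 to 0.16 (Eif4ebp1). The 8 genes all passed, with the same sign, under median centring, scaling, the first probe, the robust model, array weights, named genes alone and without array 1. Signal over background could not be read from ratios.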
